A study of Oryza sativa with 2 samples.

Results

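The Bowman-Birk inhibitor cluster of rice chromosome 1 is a tandem group of genes for small protease inhibitors, here the 6 loci LOC_Os01g03310, LOC_Os01g03320, LOC_Os01g03340, LOC_Os01g03360, LOC_Os01g03380 and LOC_Os01g03390. They were picked by identifier from a table of 57446 genes, and all 6 were present in it. RNA sequencing libraries had been made from young panicles under 2 cm long, with 1 library of the line XD1B, labelled wild type, and 1 of plants labelled lf2 mutant. The mutated gene is LATERAL FLORET 2, which the series describes as encoding an SNF2-type chromatin remodelling factor of the spikelet. No label states the allele, the background in which it was held, how many panicles were pooled or the growth conditions. The members were chosen because of their levels in these same libraries, and there are no replicates, so their values are a description with no test.

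Bowman-Birk inhibitors are compact proteins held together by many disulphide bonds. They carry exposed loops that fit the active site of trypsin-like and chymotrypsin-like serine proteases and block it. In cereals they are known from bran and germ. In rice seedlings and leaves members of the family are induced by wounding and by jasmonate, and they are counted among the inhibitors that act against the digestive enzymes of insects and the proteases of pathogens.

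The cluster was nearly silent in the XD1B library, while in the lf2 library 3 of its genes ranked among the 309 highest of the table. Values are FPKM, that is, fragments per kilobase of gene, scaled to the fragment total of each library, so that levels can be compared between genes. Summed over the 6 members the level was 3.24 FPKM in XD1B and 1930.1 FPKM in lf2, a ratio of 595. The members held 0.000475% of all FPKM in the XD1B column and 0.295% in the lf2 column. Depth was 29111345 fragments in XD1B and 27373727 in lf2, a ratio of 1.06, as recovered from the FPKM values. With 1 library per group, each difference is between these 2 libraries, and intervals given with a ratio are exact Clopper-Pearson 95% intervals that cover counting error only. Fragment numbers are lower bounds, since a common factor of the pair cannot be seen, which makes these intervals too wide rather than too narrow.

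LOC_Os01g03340 had the highest level of the cluster in both libraries, at 1.97 FPKM in XD1B and 951 FPKM in lf2. This placed it at rank 18168 of all listed genes in XD1B and at rank 36 in lf2. The ratio was 482 (287 to 883), from at least 14 and 6351 fragments. It was the 1 member that reached FPKM 1 in the XD1B library.

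LOC_Os01g03360 stood at 0.614 FPKM in XD1B and 716 FPKM in lf2, moving from rank 21203 to rank 56. Its ratio of 1165 (762 to 1882) was the highest of the members with fragments in both libraries. It rested on at least 21 fragments in XD1B and 22997 in lf2. As these are lower bounds, they do not rank the members by how well they were counted. The interval overlaps that of LOC_Os01g03340, and the difference between the ratios was not tested.

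LOC_Os01g03390, the last member along the cluster, stood at 0.621 FPKM in XD1B and 257 FPKM in lf2, at ranks 21167 and 309. Its ratio was 415 (190.2 to 1131), from at least 6 and 2339 fragments. Together with LOC_Os01g03340 and LOC_Os01g03360 it made up 99.7% of the summed FPKM of the cluster in lf2.

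The genes at the start of the cluster were far lower in lf2 than these. LOC_Os01g03310 stood at 0.0377 FPKM in XD1B, from at least 1 fragment, and at 4.97 FPKM in lf2, from at least 124. Its ratio of 132 (23.2 to 5250.1) takes in the intervals of all 3 members above. LOC_Os01g03320 was listed at 0 in XD1B and stood at 1.30 FPKM in lf2, from at least 34 fragments, which makes it at least 12.1-fold higher if 3 fragments are taken as the floor of the XD1B library. LOC_Os01g03380 was listed at 0 in both libraries, so no fragment was counted for it, which does not exclude a low level.

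**Figure D1:**
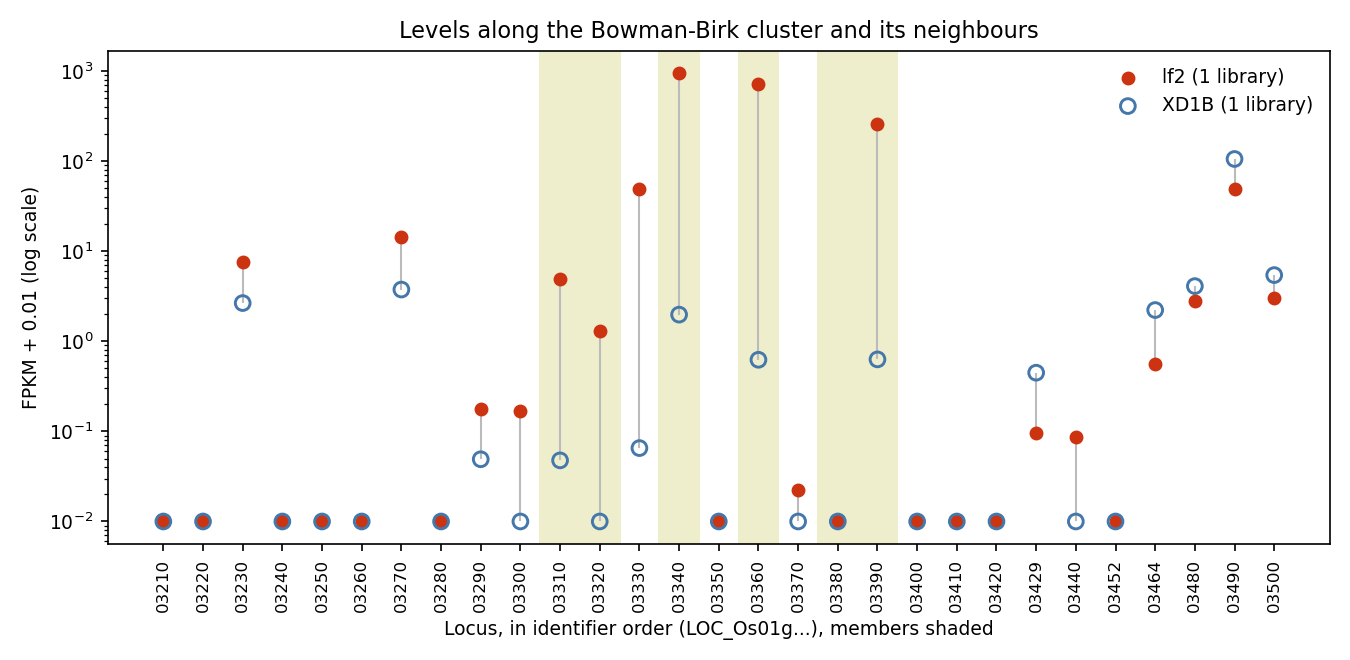
FPKM + 0.01 on a log scale for the cluster members (shaded), the 3 loci between them and the 10 listed loci on either side, in identifier order, with open circles for the XD1B library and filled circles for the lf2 library; points at the bottom are listed at 0. LOC_Os01g03340, LOC_Os01g03360 and LOC_Os01g03390 rise from under 2 FPKM in XD1B to between 257 and 951 FPKM in lf2, while the 4 loci directly next to the cluster stand at 0.166 FPKM or less in both libraries.

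Within the lf2 library the order of levels was LOC_Os01g03340, LOC_Os01g03360, LOC_Os01g03390, LOC_Os01g03310 and LOC_Os01g03320. Neighbours in this order were separated by more than counting error, with exact Poisson 95% intervals of 928 to 975 FPKM for LOC_Os01g03340, 706 to 725 for LOC_Os01g03360, 247 to 268 for LOC_Os01g03390, 4.14 to 5.93 for LOC_Os01g03310 and 0.897 to 1.81 for LOC_Os01g03320. In XD1B LOC_Os01g03340 was again the highest, with an interval of 1.08 to 3.31 FPKM. Those of LOC_Os01g03390 and LOC_Os01g03360, at 0.228 to 1.35 and 0.380 to 0.939 FPKM, overlapped each other, and the interval of LOC_Os01g03390 also overlapped that of LOC_Os01g03340.

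The makeup of the cluster's transcripts differed between the libraries in part. LOC_Os01g03340 gave 60.8% of the summed FPKM in XD1B and 49.3% in lf2. LOC_Os01g03360 gave 18.9% and 37.1%, and LOC_Os01g03390 gave 19.1% and 13.3%. The level of LOC_Os01g03360 relative to LOC_Os01g03340 was 0.312 in XD1B and 0.753 in lf2, and that of LOC_Os01g03390 relative to LOC_Os01g03340 was 0.315 and 0.271. The XD1B shares rest on at least 42 fragments over all members, against 31845 in lf2. Tandem copies can share reads, and no label states how reads matching several copies were counted, so the division among members is less certain than their sum.

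**Figure D2:**
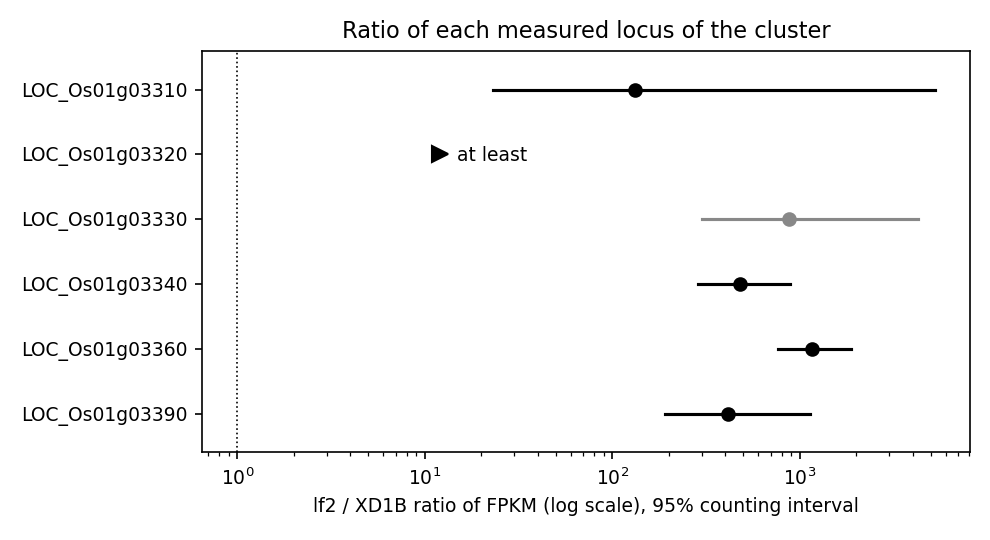
Ratio of lf2 to XD1B FPKM (log scale) for each locus of the cluster that reached FPKM 1 in either library, with lines for 95% counting intervals, black for members and grey for LOC_Os01g03330, which lies between members. The arrow marks the lower bound of 12.1 for LOC_Os01g03320, and the 4 ratios other than those of LOC_Os01g03320 and LOC_Os01g03310 lie between 415 and 1165.

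Differences were also expressed as log2((lf2 FPKM + 1)/(XD1B FPKM + 1)), which understates the change of low genes. A gene was called measured at FPKM of at least 1 in either library, and higher or lower at a log2 ratio of at least 1 or at most -1, that is 2-fold, a rule of size. Of the 6 members 5 were measured, 4 of them through their lf2 level alone, and such genes had to be higher in lf2. All 5 were at least 2-fold higher and 0 lower, while 15.3% of the 22150 genes measured in the series passed the rule upwards and 8.23% downwards. Nothing is read from that count, since the members were chosen on this contrast. The log2 ratios were 8.79 for LOC_Os01g03360, 8.32 for LOC_Os01g03340, 7.32 for LOC_Os01g03390, 2.52 for LOC_Os01g03310 and 1.20 for LOC_Os01g03320. The median over the measured members was 7.32, and over all 6 members 4.92, beside -0.31 over all measured genes. With a pseudocount of 5, LOC_Os01g03320 and LOC_Os01g03310 no longer passed the 2-fold rule, at 0.33 and 0.99.

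By log2 ratio the 3 abundant members ranked 10, 15 and 44 among the 22150 measured genes, in the order LOC_Os01g03360, LOC_Os01g03340 and LOC_Os01g03390. LOC_Os01g03310 ranked 1390 and LOC_Os01g03320 ranked 3000. Over the whole series 44 genes, or 0.0766% of those listed, were under FPKM 2 in XD1B and at FPKM 200 or more in lf2, levels chosen after the values were seen. Chromosome 1 held 9 of these genes, and 3 of them were members of the cluster.

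**Figure D3:**
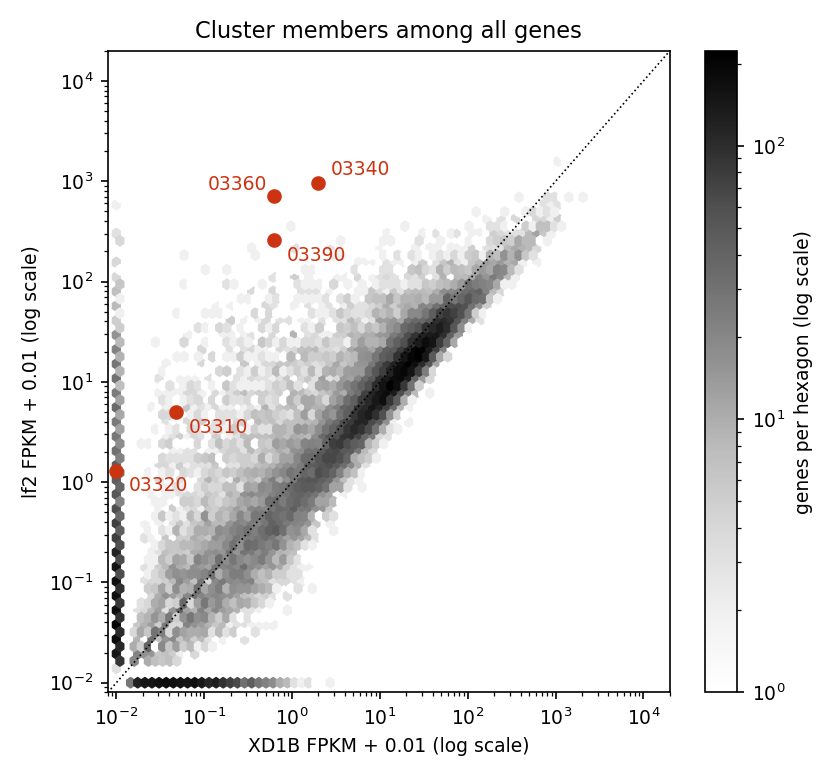
FPKM + 0.01 of every gene above 0 in either library, XD1B on the horizontal and lf2 on the vertical log axis, with shading for the number of genes per hexagon, a dotted line of equal levels and the 5 measured cluster members in colour. LOC_Os01g03340, LOC_Os01g03360 and LOC_Os01g03390 lie at the upper edge of the genes that are low in XD1B, and LOC_Os01g03310 and LOC_Os01g03320 lie among many others.

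Between the outermost members the table lists 3 further loci that are no members, and neither the files nor the reference table used here describe them. LOC_Os01g03330, which lies between LOC_Os01g03320 and LOC_Os01g03340, stood at 0.0553 FPKM in XD1B and 48.6 FPKM in lf2, a ratio of 879 (300.4 to 4264) from at least 3 and 2479 fragments. Its log2 ratio, with the pseudocount of 1, was 5.55 at rank 197, below the 7.32 to 8.79 of the 3 abundant members. LOC_Os01g03350 was listed at 0 in both libraries, and LOC_Os01g03370 was listed at 0 in XD1B and 0.0126 FPKM in lf2, from at least 1 fragment. From LOC_Os01g03340 onwards, abundant loci in lf2 were thus interleaved with loci at or near 0.

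On either side of the cluster the ratios were far smaller. Of the 10 listed loci before it 2 were measured, and both were at least 2-fold higher in lf2. LOC_Os01g03270 stood at 3.75 FPKM in XD1B and 14.4 FPKM in lf2, a ratio of 3.83 (3.04 to 4.86). LOC_Os01g03230 had 2.65 FPKM in XD1B and 7.62 FPKM in lf2, and its ratio was 2.87 (1.69 to 5.06). The 4 loci directly next to the cluster, LOC_Os01g03290 and LOC_Os01g03300 before it and LOC_Os01g03400 and LOC_Os01g03410 after it, stood at 0.166 FPKM or less in both libraries.

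Of the 10 listed loci after the cluster 4 were measured and all 4 had lower values in lf2, of which 2 were at least 2-fold lower. LOC_Os01g03490, the most abundant neighbour, stood at 106 FPKM in XD1B and 49.5 FPKM in lf2, a ratio of 0.467 (0.448 to 0.487). LOC_Os01g03464 fell from 2.22 FPKM in XD1B to 0.555 FPKM in lf2, and its ratio was 0.25 (0.121 to 0.476). Over a wider stretch, the 82 loci numbered LOC_Os01g03000 to LOC_Os01g03990 without those of the cluster included 45 measured genes. Their median log2 ratio was -0.22, with 10 of them past the 2-fold rule upwards and 7 downwards. Over chromosome 1 as a whole, the median over 3020 measured genes was -0.28, with 497 past the rule upwards and 254 downwards.

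Beyond the cluster, 3 loci had been listed as candidates for the same inhibitor family, though neither the files nor the reference table describe them. All 3 were measured and at least 2-fold higher in lf2, and their median log2 ratio was 2.67. They are named here after their values were seen. LOC_Os03g60840 had 9.36 FPKM in XD1B and 29.4 FPKM in lf2, and its ratio was 3.14 (2.74 to 3.62). LOC_Os01g03680 had 0.483 and 8.44 FPKM, with a ratio of 17.5 (8.21 to 44.4). LOC_Os01g04050 stood at 0.0854 FPKM in XD1B, from at least 1 fragment, and 341 FPKM in lf2, a ratio of 3987 (715 to 157519). Of the inhibitors of another protease class, OC-I, an oryzacystatin that blocks cysteine proteases, stood at 3.56 FPKM in XD1B and 192 in lf2, a ratio of 53.8 (45.1 to 64.8). OC-II, also an oryzacystatin, had 0.807 FPKM in XD1B and 1.48 FPKM in lf2. Its ratio was 1.83 (1.23 to 2.78), which is within 2-fold with or without the pseudocount, though the interval reaches past 2-fold.

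The jasmonate pathway, known to induce Bowman-Birk genes in rice, is built of enzymes that make the hormone, the COI1 receptors that bind it and the JAZ proteins, which repress jasmonate targets and are themselves among its early response genes. All 8 JAZ genes listed passed the 2-fold rule upwards, and their median log2 ratio was 5.21. The list held TIFY10 and TIFY11 genes only. Of the 8, 5 reached FPKM 1 in XD1B, and the others were measured through lf2 alone and had to be higher. TIFY11C stood at 0.0777 FPKM in XD1B, from at least 3 fragments, and 217 in lf2, a ratio of 2789 (954 to 13528). TIFY11A stood at 0.0659 FPKM in XD1B, from at least 2 fragments, and 57.3 in lf2, a ratio of 868 (240.0 to 7176). Of 10 genes listed under jasmonate synthesis and perception, 4 passed the rule upwards and 0 downwards, and the median was 0.63. These 4 were AOS1, AOS2, OPR1 and a transcription factor gene, neither enzyme nor receptor, whose symbol could not be checked. Of the 10, 8 reached FPKM 1 in XD1B, while OPR1 and AOS2 were measured through lf2 alone and had to be higher. The oxophytodienoate reductase gene OPR1 stood at 0.0469 FPKM in XD1B, from at least 1 fragment, and at 16.8 FPKM in lf2. OPR7, also a reductase gene of this list, stood at 36.8 and 36.1 FPKM, a ratio of 0.982. Which of these reductases acts in jasmonate synthesis was not examined. AOS1, an allene oxide synthase gene, stood at 5.34 and 35.9 FPKM, and AOC at 67.2 and 100.1 FPKM. AOS2 stood at 0.832 FPKM in XD1B and 2.75 FPKM in lf2, a ratio of 3.30. The receptor genes COI1A and COI1B stood at 84.7 and 47.8 FPKM in XD1B and at 82.3 and 56.9 FPKM in lf2.

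Other defence genes passed the rule upwards in the same library. Of 6 pathogenesis-related and defence enzyme genes, 4 were measured, and all 4 passed it with a median of 4.36. Only 2 reached FPKM 1 in XD1B, and the other measured ones entered through lf2 alone and had to be higher. The 2 not measured, listed as PR1 genes, were below FPKM 1 in both libraries. Over all 6 listed the median was 2.61. Symbol and locus could be checked for 2 of these 6. PBZ1, of the pathogenesis-related PR10 type, had 1.498 FPKM in XD1B and 116 FPKM in lf2. PAL, whose enzyme opens the phenylpropanoid pathway, had 64.7 and 929 FPKM, the latter close to the lf2 level of LOC_Os01g03340. Of 7 genes for WRKY transcription factors of defence, 6 were measured, and all 6 passed the rule upwards with a median of 5.30. Only 2 reached FPKM 1 in XD1B, and the other measured ones entered through lf2 alone and had to be higher. Over all 7 listed the median was 4.51, and symbol and locus could be checked for 3 of them. WRKY62 stood at 0.0738 and 94.95 FPKM. WRKY76, a factor encoded next to WRKY62, was listed at 0 in XD1B and stood at 17.2 FPKM in lf2.

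**Figure D4:**
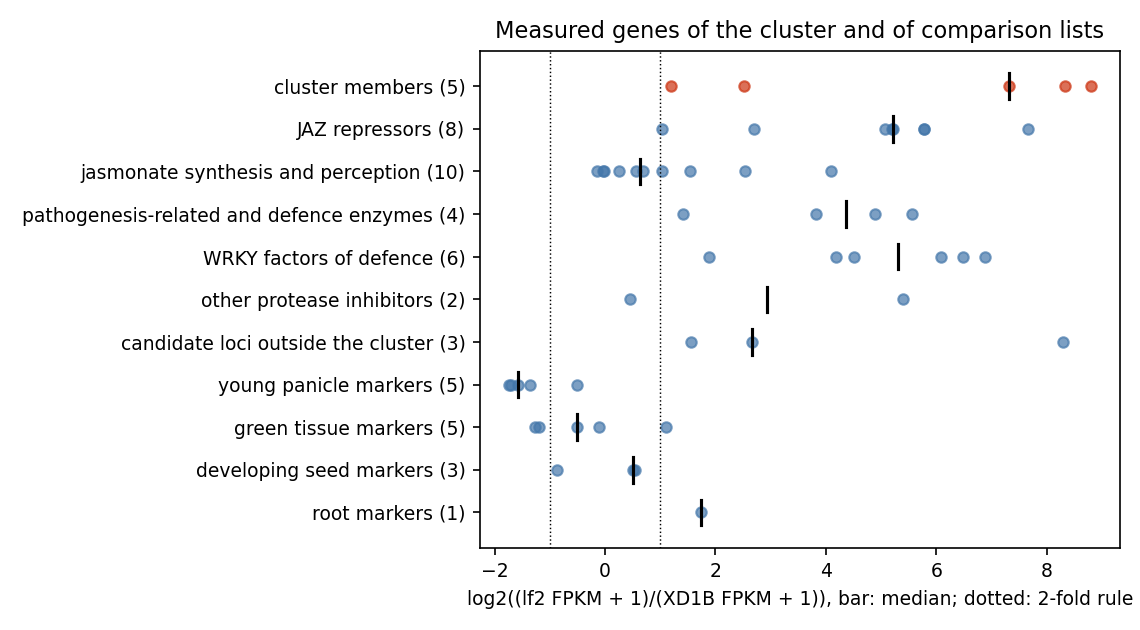
Log2 ratio of each measured gene (1 point per gene) for the cluster members and the comparison lists, with the number measured in parentheses, a bar at each median and dotted lines at the 2-fold rule. The cluster members split into a group of 3 between 7.32 and 8.79 and a pair at 1.20 and 2.52, the JAZ genes have a median of 5.21, and the young panicle markers lie at or below -0.50.

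All 5 young panicle markers were present in both libraries, but their summed level was 472 FPKM in XD1B and 194 FPKM in lf2, and 4 of the 5 were at least 2-fold lower in lf2. DL, which specifies carpels and the leaf midrib, had 40.3 and 11.4 FPKM, and the floral gene MADS7 at 72.6 and 21.6 FPKM. The 5 green tissue markers summed to 163 and 172 FPKM, with 1 past the rule upwards and 2 downwards. PORA, which makes chlorophyll precursor in the light, stood at 50.4 and 109 FPKM, and RCA, the Rubisco activase gene, at 7.80 and 2.63 FPKM.

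Bran and germ are known sites of Bowman-Birk proteins. Genes of the seed were read beside the cluster, but the list was not made to mark bran or germ as such. The 4 kept in that list summed to 17.7 FPKM in XD1B and 21.3 FPKM in lf2, with 0 past the 2-fold rule and 1 listed at 0 in both. The glutelin gene GLUA1 stood at 1.46 and 2.61 FPKM, and GLUA2 at 4.91 and 2.22 FPKM. The GLUA2 ratio was 0.452 (0.361 to 0.564), which is within 2-fold only on the log2 scale with its pseudocount. Of the 2 root silicon transporter genes, LSI2 was listed at 0 in both libraries and LSI1 stood at 0.204 and 3.04 FPKM. The part of tissue makeup, panicle stage or plant condition in the level of the cluster was not tested. Genotype and library cannot be told apart here, and fewer cells of a type cannot be told apart from less RNA per cell.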

How the data were processed

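The authors deposited 1 table of FPKM per gene with a column for each of 2 libraries, per the file headers. No label or header names the aligner, counting tool, build or annotation, the strand setting or the handling of shared reads. Library totals and fragments per gene were recovered as the whole numbers behind the FPKM values, with a tolerance of 0.0002 fragments plus 3e-07 of the number and lengths of 100 to 20000 bases. Such numbers were found for 100% of genes above 0, and the procedure was tested on simulated data. Differences are log2((lf2 FPKM + 1)/(XD1B FPKM + 1)) over the genes that reached FPKM 1 in at least 1 of the libraries, with a 2-fold rule of size and no test.

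The members and lists were chosen with earlier results of these data known. The rule for names covers all members, loci between them and up to 4 of the 10 loci on either side past the 2-fold rule. It also covers up to 4 checked genes per list with the largest differences. That part was not followed in every list. WRKY71, at a log2 ratio of 6.88, was passed over for WRKY62 at 6.48. Further genes were named for their role after their values were seen. Symbols were matched to loci by chromosome and relative position in the RefSeq table of assembly ASM3414082v1, within 12% of the chromosome. This match cannot tell neighbouring genes of a family apart, such as TIFY11A and TIFY11C or WRKY62 and WRKY76. Of 53 list entries 38 were checked, 14 had no entry, of which only the 3 candidate loci of the inhibitor family are named, by identifier, and 1 was removed. The reference table matched 0 of the 6 member identifiers, so the family name is that of the label, and no sequence was printed. LF2 itself is not reported, since no label gives its locus. The tools were scipy 1.17.1, numpy 2.4.6, matplotlib 3.10.9 and pandas 2.3.3 under Python 3.11.15.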

Additional observations from a re-analysis of the deposited data

How the results depend on the processing

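No paired analysis was possible because each group has 1 library, and no replicate could be left out. The members at least 2-fold higher numbered 3 with a pseudocount of 5 and 3 at FPKM of at least 5, where fewer members are measured by construction. Their median log2 ratio was 8.48 with a pseudocount of 0.1, 5.54 with a pseudocount of 5 and 4.92 without a filter, where LOC_Os01g03380 enters at 0. Of all measured genes, 2183 passed the 2-fold rule upwards with a pseudocount of 5, and 2978, 648 and 389 passed it downwards with a pseudocount of 0.1, a pseudocount of 5 and lf2 rescaled to a median ratio of 1. That rescaling moved the median of all measured genes from -0.31 to 0.04, and 5 of 5 measured members stayed at least 2-fold higher, at log2 ratios from 1.44 to 9.19. With each library rescaled to a sum of 1000000 they ranged from 1.58 to 9.17. No member had a log2 ratio below 0 under any setting run. Depth limits the XD1B side of every ratio, where the lower bound on fragments is 21 or fewer for each member and the true number may be higher.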
